A study of Mus musculus with 12 samples.

Results

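The genes described here are 9 signalling genes that are best known from the striatum and that are reported to lose expression in the striatum in Huntington disease: Ppp1r1b, Pde10a, Pde1b, Rasd2, Rgs9, Adcy5, Gng7, Arpp21 and Ptpn5. They were listed by name, and all 9 were found among the 41388 genes counted. RNA was measured in primary cortical neurons, not striatal ones, which were cultured from Swiss Webster mouse embryos of embryonic day 16. The neurons were infected with lentivirus after 5 days in culture and RNA was taken at 10 days, after removal of ribosomal RNA. In the Htt-72Q group the virus carried huntingtin exon 1 with 72 glutamines, as long as repeats that cause Huntington disease. In the Htt-25Q group it carried exon 1 with 25 glutamines, a length in the normal range, and in the control vector group it carried no huntingtin. Each group had 4 libraries. The constructs hold exon 1 alone, not the whole protein. Their promoter, the species of their sequence and the cells they reach are not given in the labels. All groups were infected with lentivirus and came from 1 strain and culture protocol.

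In striatal projection neurons, the dopamine receptor encoded by Drd1 and the adenosine receptor encoded by Adora2a act through a stimulatory G protein on adenylyl cyclase. This enzyme makes the second messenger cAMP. The alpha subunit Gnal pairs with the gamma subunit encoded by Gng7, and Adcy5 encodes the main cyclase of these cells. The cyclic nucleotide is broken down by phosphodiesterases, among them Pde10a and Pde1b. Where cAMP activates protein kinase A, the kinase phosphorylates DARPP-32 (Ppp1r1b), which then inhibits protein phosphatase 1, and the small phosphoprotein ARPP-21 (Arpp21). The tyrosine phosphatase STEP (Ptpn5) is a further target of the kinase. Rgs9 encodes a protein that shortens G protein signals, and Rasd2 encodes Rhes, a small GTP-binding protein of the striatum that binds huntingtin.

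Total counts ranged from 12.4 M to 20.0 M in Htt-72Q, from 18.1 M to 27.5 M in Htt-25Q and from 12.7 M to 23.4 M in control vector libraries. Levels below are CPM, the reads of a gene scaled to the size of the library with TMM factors, given as mean ± SD over 4 libraries. The submitters gave each library 1 of 5 preparation numbers (22, 24, 26, 27 and 27_1) without saying what they stand for, and libraries that share one deviated together from their group means (10 of 10 pairs had r above 0.1). Preparation 26 has no Htt-25Q library, and preparation 27 holds only Htt-25Q library 4. A second split, at the widest gap in Ctnnd1, put 6 libraries in each of classes A and B. Class B holds 3 of the 4 Htt-72Q libraries, 1 of the Htt-25Q and 2 of the control vector libraries, and Gapdh lay at 35.4 to 50.2 CPM in it, against 9.16 to 20.3 CPM in class A. The labels do not say that the libraries of a group came from separate cultures, so p-values measure the spread between these libraries.

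The neuronal label matched the data, while the receptor genes that define striatal projection neurons were low. The summed level of 12 markers of neurons of any type was 5525 to 5904 CPM in Htt-72Q neurons, 6805 to 8134 CPM in Htt-25Q neurons and 7590 to 8539 CPM in control vector neurons. Of the receptor genes, Drd1 averaged 2.39 CPM in Htt-72Q neurons, 3.98 CPM in Htt-25Q neurons and 4.54 CPM in control vector neurons. Drd2 averaged 1.5 CPM in Htt-72Q neurons, 2.82 CPM in Htt-25Q neurons and 2.89 CPM in control vector neurons. Adora2a rested on 36 reads in the 4 Htt-72Q libraries together, 31 reads in Htt-25Q and 52 reads in control vector. Markers of astrocytes summed to 2507 to 2924 CPM in Htt-72Q neurons, 2436 to 3095 CPM in Htt-25Q neurons and 2702 to 3202 CPM in control vector neurons, and those of microglia to at most 24.6 CPM in any library. Fibroblast and vessel markers summed to at most 23.4 CPM.

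The 9 genes were expressed over a wide range in these cortical neurons. Levels between genes are compared per kilobase of annotated exon. In control vector neurons Gng7 led with 27.3 ± 2.49 CPM per kb, followed by Adcy5 (23.6 ± 3.87), Arpp21 (21.2 ± 2.87), Pde1b (15.9 ± 2.09) and Ptpn5 (15.3 ± 4.16), and neighbours in this order overlapped in their ranges. Pde10a stood apart below them at 7.02 ± 1.64 CPM per kb, and Rasd2 below that at 3.40 ± 0.776. Ppp1r1b (1.23 ± 0.543) and Rgs9 (1.13 ± 0.177) were lowest and overlapped. Ppp1r1b, the gene most often used to mark the striatum, had a higher level than 23.3% of the 14707 genes tested, while Gng7 exceeded 86.0% of them. In Htt-72Q neurons the order was different. Adcy5 led at 15.1 ± 2.59 CPM per kb, Arpp21 stood in place 6 at 4.84 ± 1.11, and Ppp1r1b was last at 0.434 ± 0.193.

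**Figure D1:**
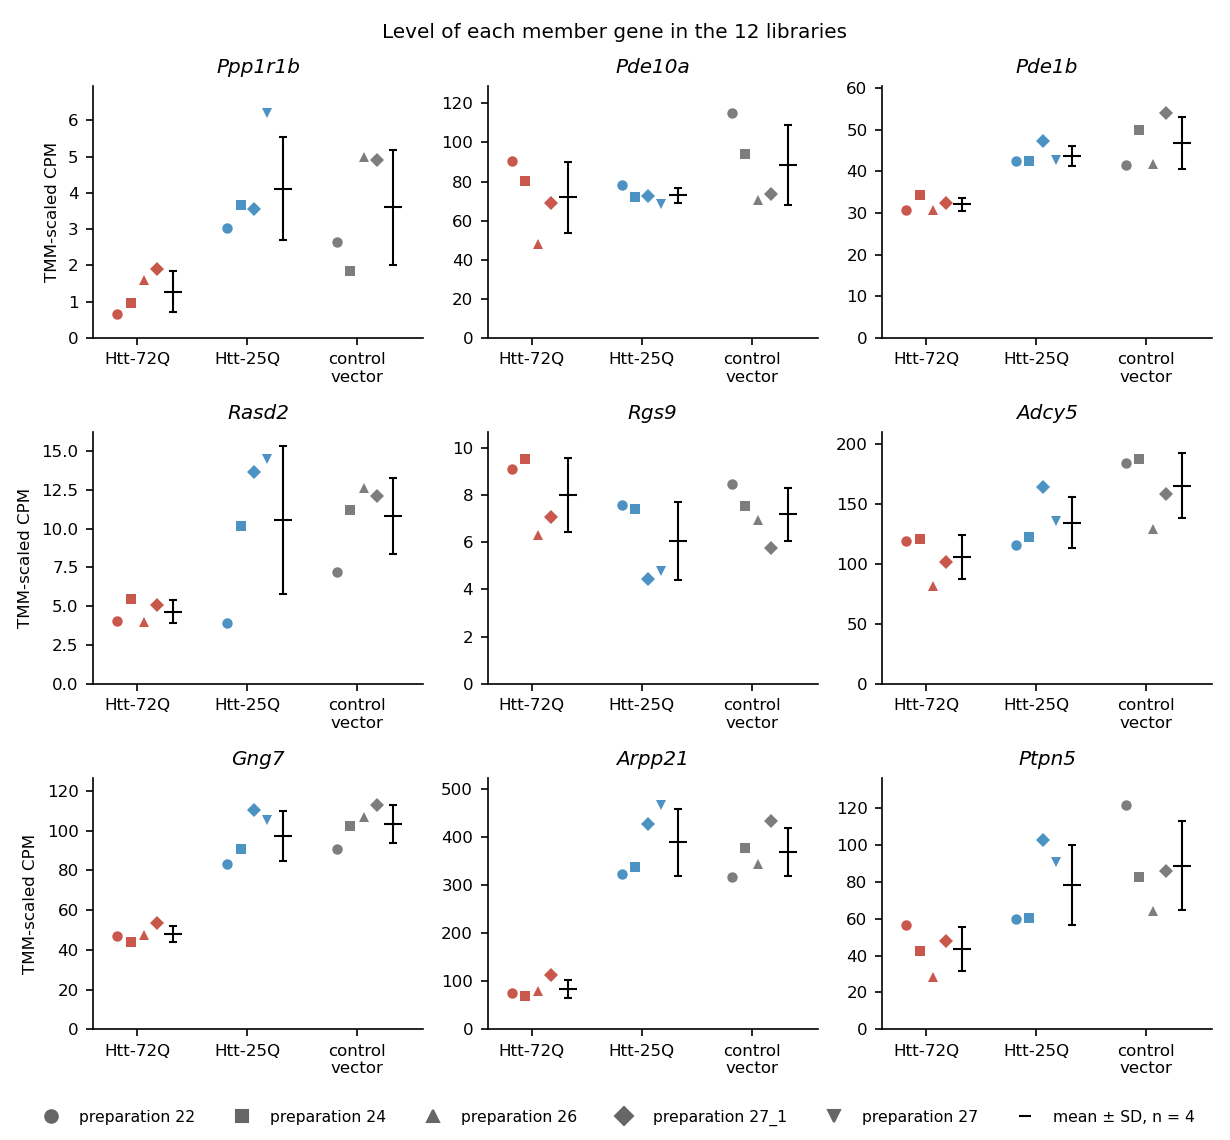
TMM-scaled CPM of each of the 9 genes (vertical axis, from 0, a separate scale for each gene) in the libraries of Htt-72Q, Htt-25Q and control vector (left to right), with the marker shape giving the preparation and the bar the mean ± SD of 4 libraries. For Arpp21, the 4 Htt-72Q libraries lie at 69.4 to 113 CPM, below all Htt-25Q and control vector libraries (318 CPM and up), whereas for Pde10a and Rgs9 the groups overlap.

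Htt-72Q neurons were compared with control vector neurons to ask what the long repeat changes, and with Htt-25Q neurons to ask what differs between the 2 repeat lengths. Against control vector, 7 of the 9 genes fell in Htt-72Q neurons: Arpp21, Ppp1r1b, Rasd2, Gng7, Ptpn5, Adcy5 and Pde1b. None rose. Over all 14707 genes tested 23.2% passed the same threshold (adjusted p under 0.05), 13.7% lower and 9.44% higher. Against Htt-25Q, 6 of the 9 fell and none rose, beside 22.5% of all genes passing, 13.4% lower and 9.06% higher. Adcy5 was the gene that passed in the first comparison alone. The 4 Htt-72Q libraries lay below all 4 control vector libraries for 6 of the 9 genes, as for 13.6% of all genes tested, and below all 4 Htt-25Q libraries for 5 of the 9, as for 15.1% of all genes. These comparisons share the Htt-72Q libraries, so they are not independent of each other. The median log2 fold change of the 9 genes was -1.02 against control vector and -0.84 against Htt-25Q, where that of all genes tested was 0.030 and 0.034. All tests were the edgeR quasi-likelihood test, with p-values adjusted by Benjamini-Hochberg over all genes tested, and all 9 genes passed the filter on low counts.

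**Figure D2:**
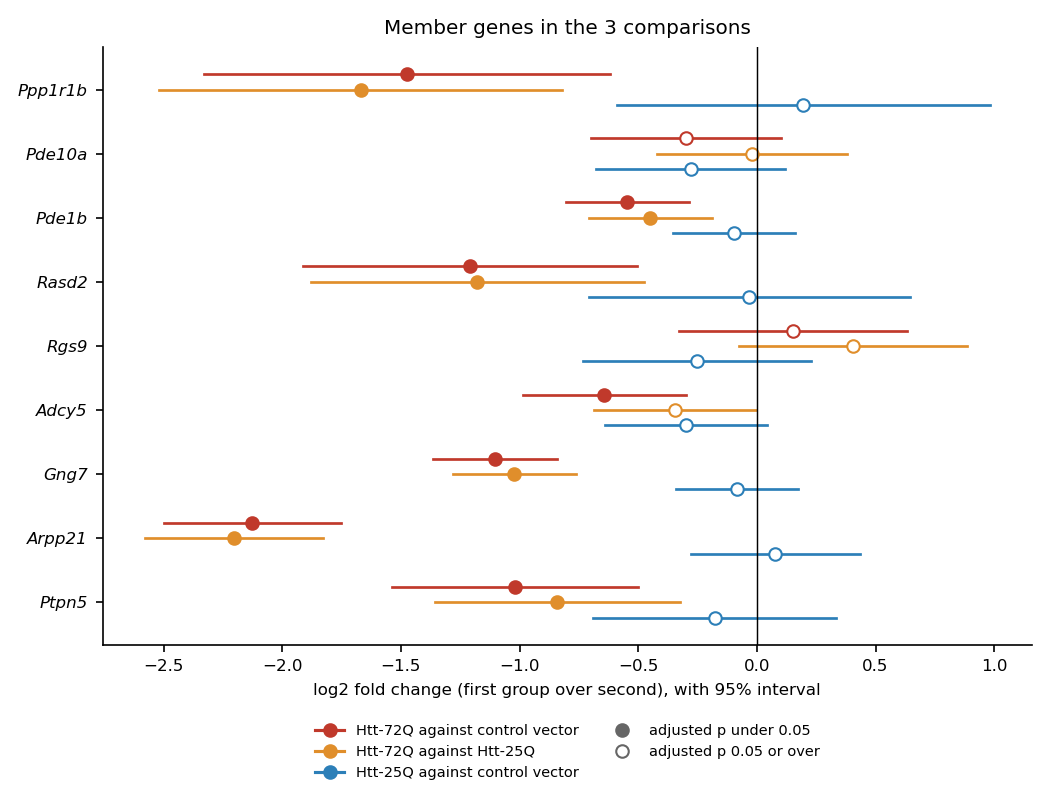
Log2 fold change (horizontal axis, first group over second) of each gene in the 3 comparisons, with its 95% interval; filled points passed an adjusted p of 0.05. The Arpp21 changes of -2.13 and -2.20 in Htt-72Q lie farthest from 0, and all points for Htt-25Q against control vector are open.

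Of the genes that feed the cyclase, Gng7 (chromosome 10, 80948624 to 81014945, minus strand, GRCm38) was the most uniform. It had 47.0, 44.1, 47.5 and 53.3 CPM in Htt-72Q libraries 1 to 4, 83.1, 91.0, 110 and 105 CPM in Htt-25Q neurons and 90.9, 102, 107 and 113 CPM in control vector neurons. Every Htt-72Q library lay below every other library. The log2 fold change was -1.10 ± 0.12 (SE) against control vector (adjusted p = 1.99e-05, edgeR) and -1.02 ± 0.12 against Htt-25Q (adjusted p = 3.95e-05), so that Htt-72Q neurons held 46.5% of the control level.

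Adcy5 (chromosome 16, 35154877 to 35305737, plus strand) stood at 119, 121, 81.8 and 102 CPM in Htt-72Q neurons, 116, 122, 164 and 135 CPM in Htt-25Q neurons and 185, 188, 130 and 159 CPM in control vector neurons. The Htt-72Q range lay below the control vector range, but Htt-25Q library 1 lay within the Htt-72Q range and library 2 just above it. Adcy5 fell by 0.64 ± 0.16 on the log2 scale against control vector (adjusted p = 0.00968, edgeR). Against Htt-25Q the change of -0.35 ± 0.16 did not pass (adjusted p = 0.142, 95% interval -0.69 to -0.0037). With library class in the model it did, at -0.51 (adjusted p = 0.0228).

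Rgs9 (chromosome 11, 109225355 to 109298129, minus strand) was the exception among the 9 in sign. Its levels were 9.12, 9.55, 6.29 and 7.06 CPM in Htt-72Q neurons, 7.57, 7.40, 4.45 and 4.78 CPM in Htt-25Q neurons and 8.49, 7.53, 6.96 and 5.78 CPM in control vector neurons, with the groups overlapping. The log2 fold change was 0.15 ± 0.22 against control vector (adjusted p = 0.674, edgeR, 95% interval -0.33 to 0.63) and 0.40 ± 0.22 against Htt-25Q (adjusted p = 0.225, interval -0.077 to 0.88). A fall of the size seen for Gng7 lies outside both intervals.

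The 2 phosphodiesterase genes differed in outcome. Pde1b (chromosome 15, 103503298 to 103530052, plus strand), which encodes an enzyme activated by calcium and calmodulin, had 30.8, 34.2, 30.7 and 32.4 CPM in Htt-72Q neurons, 42.5, 42.5, 47.3 and 42.7 CPM in Htt-25Q neurons and 41.5, 50.0, 41.8 and 54.0 CPM in control vector neurons. All Htt-72Q libraries were lower than all others. The change was modest in size, at -0.55 ± 0.12 on the log2 scale against control vector (adjusted p = 0.00461, edgeR) and -0.45 ± 0.12 against Htt-25Q (adjusted p = 0.0156).

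Pde10a (chromosome 17, 8525372 to 8986648, plus strand), which encodes an enzyme that degrades both cAMP and cGMP, had 90.5, 80.1, 48.3 and 68.8 CPM in Htt-72Q neurons, 78.2, 72.2, 72.7 and 68.6 CPM in Htt-25Q neurons and 115, 94.2, 70.5 and 73.8 CPM in control vector neurons. The 3 ranges overlapped. Its log2 fold change was -0.30 ± 0.19 against control vector (adjusted p = 0.276, edgeR, 95% interval -0.70 to 0.10) and -0.020 ± 0.19 against Htt-25Q (adjusted p = 0.955, interval -0.42 to 0.38). With preparation as a block, and 27 and 27_1 taken as 1 preparation, the change against control vector was -0.31 and passed (adjusted p = 0.0413). With 27 and 27_1 kept apart it did not (adjusted p = 0.0649). Within class B alone the difference from control vector was -0.074, and it was -0.94 in class A, where Htt-72Q had 1 library.

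Among the targets of protein kinase A, Arpp21 (chromosome 9, 112065091 to 112235938, minus strand) had the largest change of the 9 genes in both comparisons. Its levels were 76.5, 69.4, 79.0 and 113 CPM in Htt-72Q neurons, 324, 339, 427 and 468 CPM in Htt-25Q neurons and 318, 379, 345 and 434 CPM in control vector neurons. No Htt-72Q library came near the others. Htt-72Q neurons held 22.9% of the control level, a log2 fold change of -2.13 ± 0.17 (adjusted p = 1.58e-06, edgeR), and 21.7% of the Htt-25Q level, at -2.20 ± 0.18 (adjusted p = 1.13e-06). The gene 2900079G21Rik on the opposite strand shares 580 bases of exon with it, and strandedness of the counting is not given. That gene had 932 counts over the 12 libraries.

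Arpp21 is also a host gene of a microRNA. An intron of Arpp21 carries Mir128-2, and R3hdm1, a relative of Arpp21 on chromosome 1, carries Mir128-1, each on the strand of its host. Both yield the same mature miRNA, miR-128-3p, an abundant neuronal microRNA. Its RefSeq sequence is shown because both host genes fell, with the seed (bases 2 to 8) in capitals.
miR-128-3p: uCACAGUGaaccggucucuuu
In the table's build (GRCm38.p6) it lies at chr9:112118644-112118664 on the minus strand and at chr1:128202404-128202424 on the plus strand. R3hdm1 had 68.1 CPM in Htt-72Q neurons, 159 CPM in Htt-25Q neurons and 157 CPM in control vector neurons, a log2 fold change of -1.20 ± 0.23 against control vector (adjusted p = 0.00163, edgeR) and -1.22 ± 0.23 against Htt-25Q (adjusted p = 0.00146). The hairpins themselves were barely counted, with 2 reads for Mir128-2 and 7 for Mir128-1 over the 12 libraries, so the level of the miRNA was not measured.

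Ppp1r1b (chromosome 11, 98348404 to 98357796, plus strand), which encodes DARPP-32, was the gene with the fewest reads. The counts were 10, 14, 20 and 39 reads in Htt-72Q, 70, 79, 95 and 109 reads in Htt-25Q and 60, 31, 99 and 61 reads in control vector. Scaled to library size these were 0.656, 0.955, 1.59 and 1.88 CPM in Htt-72Q neurons, 3.03, 3.67, 3.55 and 6.20 CPM in Htt-25Q neurons and 2.64, 1.85, 4.99 and 4.90 CPM in control vector neurons. The Htt-72Q libraries lay below all Htt-25Q libraries, while control vector library 2 (1.85 CPM) lay just under Htt-72Q library 4 (1.88 CPM). The log2 fold change was -1.47 ± 0.40 against control vector (adjusted p = 0.0153, edgeR) and -1.67 ± 0.40 against Htt-25Q (adjusted p = 0.00749). A gene on the opposite strand, 1700003D09Rik, shares 460 of its exon bases and had 10 counts over the 12 libraries.

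Ptpn5 (chromosome 7, 47077798 to 47133684, minus strand), the gene of the phosphatase STEP, had 56.4, 42.3, 28.1 and 47.8 CPM in Htt-72Q neurons, 59.7, 60.5, 103 and 90.5 CPM in Htt-25Q neurons and 122, 82.5, 64.0 and 85.9 CPM in control vector neurons. The Htt-72Q range lay below both others, by a small margin for Htt-25Q libraries 1 and 2. Ptpn5 fell by 1.02 ± 0.24 on the log2 scale against control vector (adjusted p = 0.00730, edgeR) and by 0.84 ± 0.24 against Htt-25Q (adjusted p = 0.0223). The second call was lost without any one of Htt-25Q libraries 3 and 4 and Htt-72Q libraries 2 and 3 (log2 fold changes of -0.83 to -0.68 without each).

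Rasd2 (chromosome 8, 75213944 to 75224113, plus strand), the gene of Rhes, had 4.07, 5.46, 3.98 and 5.07 CPM in Htt-72Q neurons, 3.94, 10.1, 13.6 and 14.5 CPM in Htt-25Q neurons and 7.22, 11.2, 12.7 and 12.1 CPM in control vector neurons. The Htt-72Q libraries lay below all control vector libraries, but Htt-25Q library 1 was at the Htt-72Q level. The log2 fold change was -1.21 ± 0.33 against control vector (adjusted p = 0.0156, edgeR) and -1.18 ± 0.33 against Htt-25Q (adjusted p = 0.0188). With limma voom neither passed (-1.16, adjusted p = 0.0502, and -1.01, adjusted p = 0.0846), and the second did not pass without Htt-25Q library 3 (-1.03) or library 4.

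Htt-25Q was compared with control vector to ask what the construct with the shorter repeat does. None of the 9 genes passed (adjusted p = 1.00 for each, edgeR), beside 0% of the 14707 genes tested. At an unadjusted p under 0.05 none of the 9 and 129 of all genes (0.877%) passed, and DESeq2 and limma voom also called none. The fitted changes ran from -0.30 for Adcy5 (95% interval -0.64 to 0.045) through -0.28 for Pde10a and -0.25 for Rgs9 to 0.078 for Arpp21 and 0.20 for Ppp1r1b. For Arpp21 the interval was -0.28 to 0.44 and for Gng7 -0.34 to 0.17, so a fall as large as in Htt-72Q lies outside them. For Adcy5 and Pde10a the intervals do not tell a small fall from none. In simulated counts for this comparison, with libraries drawn independently of each other, the test recovered 11.1% of 1.5-fold, 58.1% of 2-fold and 96.9% of 4-fold changes.

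Within preparations, the difference between Htt-72Q and control vector was below 0 in 4 of 4 preparations for each of the 9 genes other than Rgs9, which was lower in Htt-72Q in 1 of 4. The share of all genes lower in 4 of 4 was not counted. The spread over preparations was narrowest for Adcy5 (-0.66 to -0.64 on the log2 scale) and wide for Ppp1r1b (-1.86 to -0.89) and Rasd2 (-1.64 to -0.81). For Arpp21 it was -2.45 to -1.94 and for Gng7 -1.21 to -0.95. Between Htt-72Q and Htt-25Q 3 preparations could be compared, and all 3 were lower in Htt-72Q for Arpp21, Gng7, Pde1b, Ppp1r1b and Ptpn5. For Ptpn5 these ran from -1.10 in preparation 27_1 to -0.082 in preparation 22. Rasd2 was lower in 2 of 3 and near 0 in preparation 22 (0.046). Adcy5 was near 0 in preparations 22 and 24 (0.035 and -0.019), so within preparations its difference from Htt-25Q rests on 27_1 (-0.69). The test of all libraries also used Htt-72Q library 3 (81.8 CPM) and Htt-25Q library 4 (135 CPM), which have no partner in this comparison. In preparations 22 and 24 the Htt-25Q library itself was below control vector for Adcy5 (-0.67 and -0.62), and in 27_1 it was not (0.048). Pde10a was lower in Htt-72Q than in Htt-25Q in 1 of 3 (-0.081 to 0.21). Rgs9 was higher in Htt-72Q in 3 of 3 (0.27 to 0.65).

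**Figure D3:**
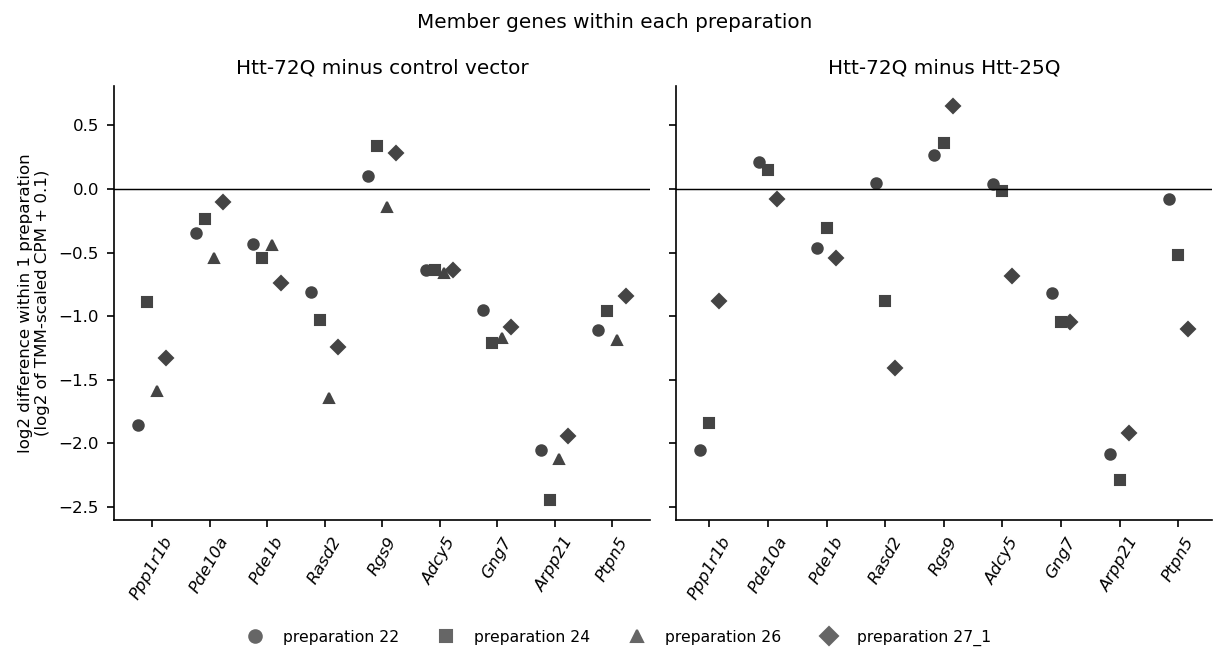
Difference in log2(CPM + 0.1) between the Htt-72Q library and the control vector library (left) or the Htt-25Q library (right) of the same preparation, with 1 point per preparation and the marker shape giving its number. The Adcy5 points against control vector lie at -0.66 to -0.64, while those against Htt-25Q spread from -0.69 to 0.035.

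The library classes gave the same directions for most genes. The share of all genes lower by the same rule was not counted. Within class A, with 1 Htt-72Q library, 9 of 9 genes were lower than in control vector and 9 of 9 lower than in Htt-25Q. In class A this included Rgs9 (-0.29) and Pde10a (-0.94) against control vector, which did not pass in the test of all libraries. Within class B, with 3 Htt-72Q libraries, 8 of 9 were lower than in control vector (all but Rgs9) and 7 of 9 lower than in Htt-25Q (all but Rgs9 and Pde10a). The differences within classes against control vector were -2.07 in A and -2.23 in B for Arpp21, and -1.06 and -1.16 for Gng7. For Ptpn5 they were -1.72 in A and -0.78 in B.

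Beside the fall of these genes, the summed levels of neuronal markers were lower in Htt-72Q neurons. The counts of markers below stand beside 23.2% of all genes passing against control vector (13.7% lower) and 22.5% against Htt-25Q (13.4% lower). Excitatory cortical neuron markers summed to 929 to 1200 CPM in Htt-72Q neurons. The sums were 2859 to 3531 CPM in Htt-25Q neurons and 2902 to 3484 CPM in control vector neurons. Mef2c made up the largest part of these sums, averaging 1893 CPM with control vector, 1824 CPM with Htt-25Q and 414 CPM with Htt-72Q. Counted by gene, 10 of 14 fell against control vector and 13 of 14 against Htt-25Q. Slc17a6, named after its value was seen, was higher with Htt-72Q but did not pass. It averaged 87.9 CPM there, against 70.8 CPM with Htt-25Q and 67.9 CPM with control vector. Inhibitory neuron markers summed to 120 to 189 CPM in Htt-72Q neurons, 213 to 340 CPM in Htt-25Q neurons and 243 to 320 CPM in control vector neurons, with 4 and 5 of 12 falling. Of the 12 markers of neurons of any type, 4 fell against control vector (33.3%) and 3 against Htt-25Q (25%), the latter near the share of all genes passing. None of 9 astrocyte markers passed in either comparison. Neural progenitor markers summed to 364 to 428 CPM in Htt-72Q neurons, 295 to 380 CPM in Htt-25Q neurons and 310 to 337 CPM in control vector neurons, where 1 of 8 rose against control vector, and 1 rose and 1 fell against Htt-25Q. Oligodendrocyte lineage markers summed to 519 to 633 CPM in Htt-72Q neurons, 504 to 627 CPM in Htt-25Q neurons and 539 to 713 CPM in control vector neurons, and 1 of 9 fell against control vector and 2 of 9 against Htt-25Q. Striatal markers summed to 139 to 155 CPM in Htt-72Q neurons, 353 to 370 CPM in Htt-25Q neurons and 332 to 423 CPM in control vector neurons, and Ikzf1 in Htt-72Q and Isl1 in Htt-25Q had no count. Of 15 striatal markers tested, 6 fell and 2 rose against control vector, and 6 fell and 1 rose against Htt-25Q. Those that rose, named after their values were seen, were Zfp503 in both comparisons (1.40 and 1.26) and Rarb against control vector (0.79). Mitochondrial genes took 12.9, 11.1, 15.2 and 14.7% of the reads in Htt-72Q libraries 1 to 4, against 7.26, 8.04, 14.7 and 7.33% in the control vector libraries of the same preparations. They were higher in Htt-72Q in each of these pairs, and the share in Htt-25Q libraries was 7.96 to 13.7%. In preparations 22 and 24 the Htt-25Q library was above the Htt-72Q library (13.73 and 12.15%), and in 27_1 below it (7.96%). Most of the mitochondrial share was mitochondrial ribosomal RNA. It took 10.8 to 14.8% of reads in Htt-72Q, 7.77 to 13.2% in Htt-25Q and 6.71 to 14.2% in control vector libraries. With mitochondrial genes left out of the library totals, 3403 genes passed against control vector and 3300 against Htt-25Q (3411 and 3307 with them kept). In these bulk cultures fewer cells of a type and less RNA per cell cannot be told apart. The part of these markers in the result, and of the mitochondrial share beyond scaling, was not tested.

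Other genes of the pathway were counted in lists made by role, beside the 23.2% of all genes that passed against control vector and 22.5% against Htt-25Q. Of 21 receptor genes tested that act on cAMP or stand beside the pathway, 13 fell and 1 rose against control vector, and 12 fell and 1 rose against Htt-25Q. Gpr6, an orphan receptor that raises cAMP, was at 2.47 CPM in Htt-72Q neurons, against 44.8 CPM in Htt-25Q neurons and 57.7 CPM in control vector neurons. The adenosine receptor gene Adora1 and the cannabinoid receptor gene Cnr1, both coupled to inhibition of cyclase, changed by -1.47 ± 0.12 and -1.17 ± 0.10 against control vector. The dopamine receptor genes passed against control vector only, Drd1 at -0.94 ± 0.29 (adjusted p = 0.0291, edgeR) and Drd2 at -0.95 ± 0.32 (adjusted p = 0.0450). Against Htt-25Q their adjusted p-values were 0.0779 and 0.0552. Adora2a did not pass in either (adjusted p = 0.787 and 0.466). The receptor that rose was the serotonin receptor gene Htr4, named after its value was seen, at 2.78 CPM in Htt-72Q neurons, 0.844 CPM in Htt-25Q neurons and 0.706 CPM in control vector neurons.

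Among 26 genes of G proteins and partners of RGS9, 9 fell and 1 rose in both comparisons; the one that rose, named after its value was seen, was Ric8b (0.48 against control vector), a chaperone of alpha subunits. Gnal, the alpha subunit that pairs with the Gng7 product, was at 133 CPM in Htt-72Q neurons and 246 CPM in control vector neurons (-0.89 ± 0.12, adjusted p = 0.000111, edgeR), and the beta subunit gene Gnb4 changed by -0.92 ± 0.12. The other R7 regulators Rgs6 (-1.92 ± 0.16) and Rgs7 (-1.06 ± 0.16) fell against control vector where Rgs9 did not pass. Rgs7bp, which anchors these proteins at the membrane, was at 68.0 CPM in Htt-72Q neurons and 145 CPM in Htt-25Q neurons (-1.09 ± 0.17, adjusted p = 0.000445). Of 8 other cyclases, 4 fell and none rose in both comparisons: the calcium-stimulated Adcy1 and Adcy8 (-1.5 ± 0.16 and -1.72 ± 0.27 against control vector), Adcy2 and Adcy7. Of 15 other phosphodiesterases, 3 fell and 3 rose against control vector and 2 fell and 2 rose against Htt-25Q. The share passing was 40% against control vector and 26.7% against Htt-25Q, the latter near the 22.5% of all genes. Pde1a, the relative of Pde1b, changed by -1.51 ± 0.20 against control vector, while Pde1c rose in both comparisons (0.74 ± 0.21 and 0.70 ± 0.21). Pde4d changed by -0.66 ± 0.16 and Pde7a by -0.59 ± 0.16 against control vector. Pde4c rose to 1.01 CPM in Htt-72Q neurons, against 0.214 CPM in Htt-25Q neurons and 0.103 CPM in control vector neurons, and Pde3b, named after its value was seen, rose against control vector (0.64). Of 12 closest relatives of the 9 genes, 4 fell and 2 rose against control vector, and 5 fell and 2 rose against Htt-25Q.

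Of 28 genes of protein kinase A and its anchors, 6 fell and 1 rose against control vector and 6 fell and 3 rose against Htt-25Q. The share passing against control vector, 25%, was near the 23.2% of all genes, and against Htt-25Q it was 32.1% beside 22.5%. Those that fell included the regulatory subunit genes Prkar1b (-0.59 ± 0.12 against control vector) and Prkar2b (-0.71 ± 0.15) and the anchor gene Akap7 (-1.11 ± 0.17). The regulatory subunit gene Prkar1a, named after its value was seen, rose in both comparisons (0.43 and 0.40). Of 20 genes of phosphatases and kinases around DARPP-32, 6 fell and 2 rose against control vector, and 6 fell and 1 rose against Htt-25Q. Those that fell included Ppp3ca, a calcineurin catalytic subunit (-0.98 ± 0.13), and Cdk5r1, the p35 activator of Cdk5 (-1.08 ± 0.13), and Ensa, named after its value was seen, rose in both comparisons (0.75 and 0.58). Among 9 genes of CREB and its partners none fell, and Crem rose to 26.0 CPM in Htt-72Q neurons, against 13.2 CPM in Htt-25Q neurons and 11.6 CPM in control vector neurons (1.18 ± 0.28 against control vector, adjusted p = 0.00775, edgeR). Of 7 substrates of STEP, 5 fell in each comparison, including Ptk2b, which encodes the kinase PYK2 (-1.69 ± 0.21 against control vector), the kinase gene Mapk3 (-0.81 ± 0.16) and the glutamate receptor gene Gria2 (-1.09 ± 0.11). None of the genes in these lists passed in Htt-25Q against control vector.

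**Figure D4:**
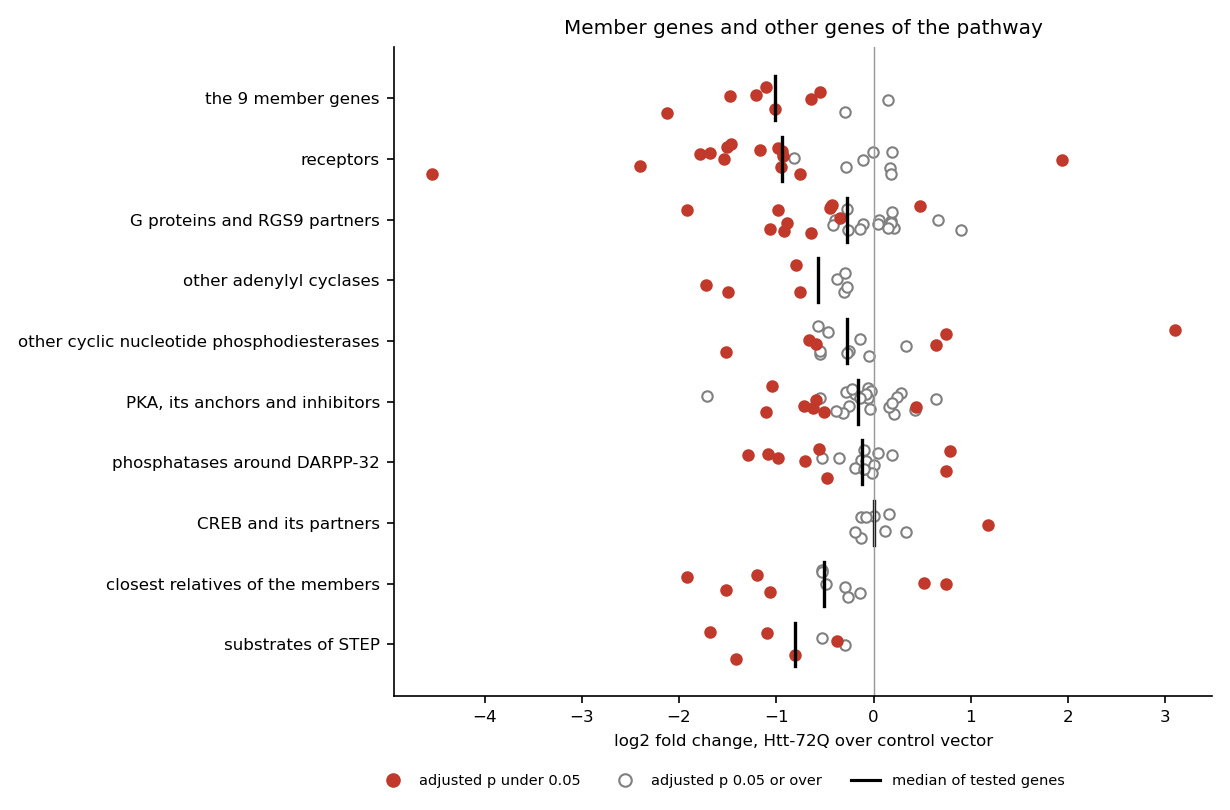
Log2 fold change of Htt-72Q over control vector (horizontal axis) for the 9 genes and for the tested genes of each pathway list, 1 point per gene, filled where the adjusted p was under 0.05, with a bar at the median. The median is -1.02 for the 9 genes, -0.94 for the receptors and 0.0072 for CREB and its partners.

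The share that each gene takes of its family's summed level per kb shows how it moved beside its relatives. Adcy5 took 13.4 ± 1.18% of the level of 10 cyclase genes in Htt-72Q, 9.32 ± 0.409% in Htt-25Q and 9.73 ± 0.793% in control vector, and Adcy1 was the most abundant in all 3 groups. Pde1b took 43.5 ± 7.55% of the 3 Pde1 genes in Htt-72Q, 28.7 ± 2.05% in Htt-25Q and 28.0 ± 1.58% in control vector. Rgs9 took 5.10 ± 1.5% of the R7 regulators in Htt-72Q, 1.6 ± 0.438% in Htt-25Q and 2.12 ± 0.367% in control vector. Shares went the other way for Arpp21, with 29.9 ± 1.07% of the 3 genes Arpp21, R3hdm1 and R3hdm2 in Htt-72Q, 55.7 ± 1.96% in Htt-25Q and 54.2 ± 8.32% in control vector. Gng7 took 4.96 ± 0.275% of 10 gamma subunit genes in Htt-72Q, 8.26 ± 1.37% in Htt-25Q and 9.21 ± 1.54% in control vector. Ptpn5 took 52.7 ± 7.02% of Ptpn5, Ptpn7 and Ptprr in Htt-72Q, 73.9 ± 4.47% in Htt-25Q and 76.2 ± 4.64% in control vector, and Ptprr itself, named after its value was seen, rose in Htt-72Q (0.52 ± 0.11 against control vector).

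**Figure D5:**
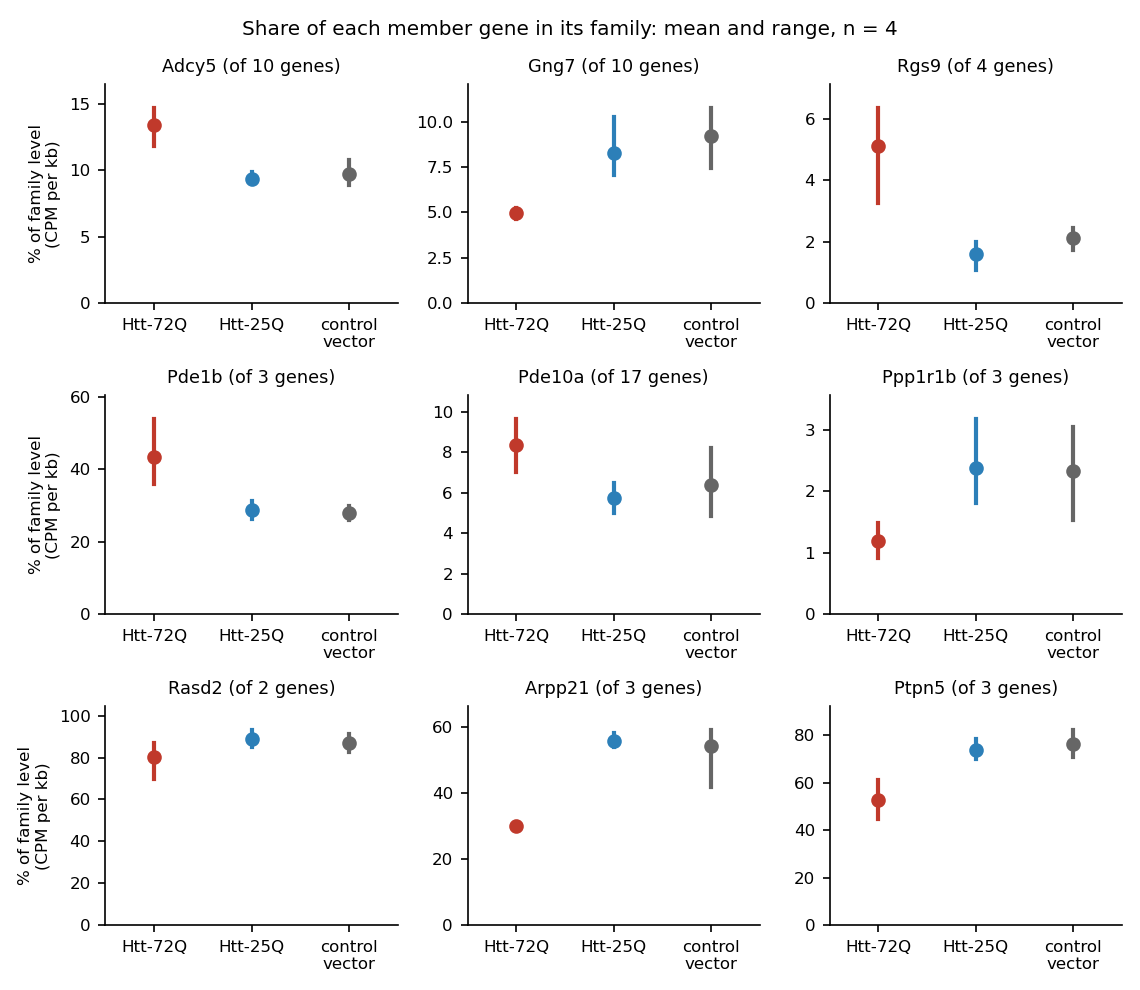
Share of each of the 9 genes in the summed CPM per kb of its gene family, in percent (vertical axis, from 0, a separate scale for each gene), for Htt-72Q, Htt-25Q and control vector (left to right), with the mean as a point and the range of 4 libraries as a line. The Htt-72Q range lies above both others for Adcy5, Pde1b and Rgs9 and below both for Arpp21, Gng7, Ppp1r1b and Ptpn5.

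The genes whose levels followed each of the 9 most closely were found by Pearson's r of log2 CPM over the 12 libraries among 12338 genes, as a description. All points share the group differences and the scaling. Arpp21 was most like Ntm (r = 0.995) and Rgl1 (0.995), Gng7 like Nbl1 (0.991) and Vstm2l (0.991), and Ptpn5 like Sema6a (0.986) and Fstl4 (0.985). Adcy5 was most like Dner (0.977) and Ppp2r2c (0.977), Pde1b like Actl6b (0.977) and Lypd6b (0.973), and Pde10a like Arhgap39 (0.975) and Gna12 (0.963). Ppp1r1b was most like Herc3 (0.971) and Mlip (0.970), Rgs9 like Klhl28 (0.966) and Fam196b (0.939), and Rasd2 like Cacng3 (0.924) and Pde8b (0.921), the last of which encodes a cAMP phosphodiesterase.

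Promoters were searched because CREB, the transcription factor that cAMP activates, binds the cAMP response element. RefSeq promoter windows (250 bases before each start, GRCm38.p6) were found for 8 of the 9 genes, 21 windows in all, of which 9 are of Arpp21, and none for Ppp1r1b. All motifs were searched on both strands. The full element TGACGTCA was in none of them, where 1.55% of 32851 windows of all genes hold it. Its core TGACG, which is part of the full element, was in 3 windows of 2 genes (14.3% of the 21 windows), against 17.8% of all windows. These 3 matches are shown, as the only ones found, on the gene's strand with 12 bases on each side and the core, or its reverse complement, in capitals.
Gng7: ccagagtggaacCGTCAccctctgctccc
Arpp21: ctaaggctgaggTGACGcacctgcctcct
Arpp21: gcagatgcttcaTGACGgagtaaagagtg
They lie at chr10:81001458-81001486, chr9:112185969-112185997 and chr9:112217297-112217325, all on the minus strand, with the first capital 109, 36 and 52 bases before the start. The GC box GGGCGG was in 6 of the 21 windows (28.6%) and in 32.7% of all windows. TATAAA was in 1 of the 21, that of Rgs9 (4.76%), and in 12.4% of all, and the EGR site GCGTGGGCG in none and in 0.536% of all. A match is no more than a match of letters, and a window without one says nothing of the factor.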

How the data were processed

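Gene counts, CPM and RPKM were deposited by the authors for each of the 12 libraries. Per the submitters' processing notes, the tools were STAR 2.0.4b, featureCounts 1.45 and Subread and the build was GRCm38, and per the labels each library was sequenced in several lanes that were merged. How strand was handled and which annotation was counted is not given in the sources used here. CPM as deposited follow from the counts and the library totals (differences of at most 5.09e-10), and the deposited RPKM from CPM per kilobase (at most 3.2e-10), so the counts alone were analysed. Control vector 2 was placed by its title: its infection entry names a control vector where those of the other 3 name an empty vector. Without it 7 of the 9 genes still fell against control vector, where 23.2% of all genes passed in the fit of all libraries. No libraries were duplicates.

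The 9 genes, the lists by role, the markers and the class split were chosen with earlier results of these data known. Counts were scaled by TMM, filtered with filterByExpr at a minimum count of 10 and fitted with edgeR 4.0.16 (R 4.3.3, glmQLFit and glmQLFTest) over 12 libraries in 3 groups, leaving 9 residual degrees of freedom. P-values are two-sided and adjusted over 14707 genes, and a gene is said to rise or fall at an adjusted p under 0.05. Intervals are 95% intervals of the fit. The test was checked on simulated counts with planted changes in 62 to 72 genes per fold among 14482 or 14498, with libraries drawn independently of each other. In the data 23.2% and 22.5% of genes passed in the Htt-72Q comparisons and libraries of a preparation correlated, so the rates there may differ. Over the comparisons the test recovered 4.69 to 16.7% of 1.5-fold changes, 50 to 61.3% of 2-fold and 93.8 to 96.9% of 4-fold changes. Of genes without a planted change at most 0.035% passed. A gene that did not pass may thus still differ by a small fold. Levels per kilobase use the gene length deposited with the counts, and gene coordinates were deposited with them too. Gene types are from the GENCODE M21 annotation. Named genes are the 9, at most 4 called genes per list and comparison by smallest p, Drd1, Drd2, Adora2a, and 2 genes per member for likeness (mean of at least 1 CPM); other genes are marked as named after their values were seen. Some list genes are counted but not reported here by name. Deviations from group means correlated between libraries of the same preparation in 10 of 10 pairs (r of 0.113 to 0.531, median 0.299; median -0.088 between preparations), so these numbers, taken from the descriptions, pair the samples, and a blocked value stands beside a result where it changes a call. Same title numbers gave 10 of 12. Alternatives were DESeq2 1.42.0, limma voom (limma 3.58.1), other scalings, filters and thresholds, blocks, library class, 2 groups only and leaving out each library.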

Additional observations from a re-analysis of the deposited data

Results flagged for a closer look

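Pde1b in Htt-25Q was marked because its highest library, Htt-25Q 3 at 47.3 CPM, stood far from the other 3 libraries of the group (42.5 to 42.7 CPM): the gap was 0.955 of the whole range, above Dixon's 95% critical value for 4 libraries. This was 1 of 27 groups of values tested, and chance marks about 1 in 20. All 4 Htt-25Q libraries stayed above the highest Htt-72Q library (34.2 CPM).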

How the results depend on the processing

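Under 27 alternative settings, 697 of 729 log2 fold changes of the 9 genes kept their direction and their side of the threshold, and so did Arpp21, Gng7, Pde1b and Ppp1r1b in both Htt-72Q comparisons at the 0.05 threshold. At an adjusted p under 0.01, 1885 genes passed in Htt-72Q against control vector, among them Arpp21, Gng7, Pde1b, Ptpn5 and Adcy5. Ppp1r1b and Rasd2 did not pass there at that threshold (adjusted p = 0.0153 and 0.0156, edgeR). In Htt-72Q against Htt-25Q 1763 genes passed, among them 3 of the 9 genes. Leaving out 1 library each, 7 of the 9 passed against control vector every time and 4 to 6 against Htt-25Q. With the replicate block by preparation 7 genes (27 and 27_1 apart) or 8 (as one, with Pde10a at -0.31) passed against control vector and 6 against Htt-25Q, and the block changed no other call. With library class in the model 7 passed against Htt-25Q. In the main fit 23.2% of all genes passed against control vector and 22.5% against Htt-25Q. The shares of all genes with these blocks, with class and with libraries left out are not given here. Without scaling factors the genes called were 1925 higher and 1702 lower against control vector (1389 and 2022 with TMM) and 1738 higher and 1692 lower against Htt-25Q (1333 and 1974 with TMM), and the median of all genes moved to 0.11 and 0.10.

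Signs turned only for changes that passed no threshold. Pde10a in Htt-72Q against Htt-25Q was 0.024 with upper-quartile scaling, 0.053 without scaling factors, 0.050 and 0.037 with the blocks by preparation, and -0.15 to 0.13 over the libraries left out in turn, above 0 without Htt-25Q 1, Htt-72Q 3 or Htt-72Q 4. In Htt-25Q against control vector, Arpp21 was -0.053 and -0.035 with the blocks and Rasd2 was 0.038 with library class. With each library left out in turn, that comparison gave -0.030 to 0.16 for Arpp21 (below 0 without Htt-25Q 4), -0.23 to 0.24 for Rasd2 (above 0 without Htt-25Q 1 or control vector 3 or 4), -0.34 to 0.016 for Ptpn5 (above 0 without control vector 1) and -0.073 to 0.39 for Ppp1r1b (below 0 without control vector 2 or Htt-25Q 4). The cause of these turns was not tested. Depth limits Ppp1r1b most, at 10 to 39 reads per Htt-72Q library, and intervals for Rasd2 and Ppp1r1b are wide.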
